A study of Drosophila melanogaster with 2 samples.

Results

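Peaks of the transcription factor Trachealess (Trh) were described at 9 of the 13945 protein-coding genes of the main Drosophila melanogaster chromosome arms, the genes for ligands, ligand-processing proteins, the receptor and the antagonists of EGF receptor signalling. The 9 genes were taken by name, and counts are over all 9, each of which matched the annotation. Described one by one are 8 of them, the ligands spi and vn, the ligand-trafficking gene S (Star), the protease ru, the receptor Egfr, and the antagonists aos, sty and kek1. A peak was counted at a gene by span when its summit lay in the gene or within 2000 bp of either end, and by nearest TSS when the closest protein-coding transcription start site to its summit belonged to the gene. Neither rule used peak height.

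The data came from 1 group, whole embryos of a transgenic trh-GFP line in which GFP is fused to the C terminus of Trh. The embryos were of both sexes and 0 to 24 h old, and sonicated chromatin was immunoprecipitated with an antibody against GFP. There were 2 biological replicates, numbered 1 and 3 in the labels, which shared 1 control alignment. No second genotype, stage or treatment was compared, so no test between conditions exists and the values are descriptions set beside all protein-coding genes. In whole embryos, binding in few cells and weaker binding in many cells cannot be told apart, and all stages of embryogenesis were mixed.

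EGF receptor signalling in the fly starts when Spitz, made as a membrane-tethered precursor, is carried by Star out of the endoplasmic reticulum and cut by intramembrane proteases such as Ru. The released ligand, or the neuregulin-like ligand Vein, activates the receptor and through it the Ras and MAP kinase cascade, while Argos, Kekkon 1 and Sprouty restrain the pathway. Trh is a bHLH-PAS factor needed for the tracheae, salivary ducts and posterior spiracles, and EGF receptor signalling acts in the tracheal placode during its invagination. With its partner Tango, Trh is known to bind the sequence TACGTG, whose core is ACGTG.

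The sequences around the highest reproducible summit of each gene that had one are shown first. The motif and base composition results below are over all 10 peaks past IDR, so they also take in windows not shown. Each line gives 101 bases of the Release 6 (dm6) genome centred on the summit, 5′ to 3′. Capitals mark matches on either strand to TACGTG in spi, to TGTTTAC in S (minus strand) and to GAGAG in vn (minus strand), and the lines of ru, aos and sty hold no match to the sequences searched.
spi, chr2L:19575742-19575842, plus strand: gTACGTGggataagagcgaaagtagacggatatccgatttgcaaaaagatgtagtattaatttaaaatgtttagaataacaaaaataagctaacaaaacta
S, chr2L:1072324-1072424, plus strand: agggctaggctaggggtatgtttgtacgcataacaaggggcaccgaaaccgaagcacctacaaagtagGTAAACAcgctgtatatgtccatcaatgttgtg
ru, chr3L:1368222-1368322, plus strand: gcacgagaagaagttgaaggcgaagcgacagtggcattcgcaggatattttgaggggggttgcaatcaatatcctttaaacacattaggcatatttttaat
vn, chr3L:5824183-5824283, plus strand: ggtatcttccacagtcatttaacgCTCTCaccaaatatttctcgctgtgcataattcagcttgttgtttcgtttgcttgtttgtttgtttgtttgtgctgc
aos, chr3L:16480503-16480603, plus strand: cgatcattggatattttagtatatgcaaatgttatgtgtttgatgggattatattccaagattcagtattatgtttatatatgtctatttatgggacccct
sty, chr3L:3432842-3432942, plus strand: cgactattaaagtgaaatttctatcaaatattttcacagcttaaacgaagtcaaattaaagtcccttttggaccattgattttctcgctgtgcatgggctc
The spi line begins with the match to TACGTG next to its first base. The S line has its match close to the summit and a higher content of G and C bases than the others.

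The deposited list of peaks past the irreproducible discovery rate (IDR) threshold held 2322 peaks, the list called on pooled replicates 21025, and the lists of replicates 1 and 3 held 28743 and 30000. The signal value of a peak is a score given by the authors' peak caller on a scale that differs between lists, so ranks within a list, with 1 the highest, are given beside it. Past IDR it ran from 74.4 to 1016 with a median of 110.1, and those peaks were the 2322 highest of the pooled list. Read depth is unknown, since only called peaks were used here.

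Peaks past IDR were found at 6 of the 9 genes, namely spi, vn, S, ru, aos and sty, and Egfr and kek1 were among those with none. By span, 5 of 9 genes (55.6%) held 8 such peaks, against 22.4% of all protein-coding genes and 32.9% of the 2918 genes whose spans lie between the shortest and the longest of the 9. These 2918, called genes of like span below, share only that range and were not matched to the spans of the 9 within it. By nearest TSS, 5 of 9 genes held one, against 12.9% of all genes. By either rule 6 of 9 (66.7%) held 10 peaks, against 23.7%. The shares at the 9 genes were above those backgrounds by each rule, but no test was made. They rest on 9 genes picked by name with earlier results of these data known, so the comparison is not independent of the data. The rules disagreed at vn, counted by span, and at sty, counted by nearest TSS.

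In the pooled list, which includes background peaks by design, all 9 genes held a peak by span, against 73.3% of all genes. The share is higher among genes of like span, of which 84.9% had a pooled summit at least as high as that of kek1 (29.9). The windows of the 9 genes, 208.2 kb in all, held 38.4 peaks past IDR per Mb, against 20.6 per Mb over the windows of all protein-coding genes and 17.3 per Mb over the chromosome arms. For pooled peaks the densities were 283.4 per Mb at the 9 genes, 175.4 in all gene windows and 157.0 over the arms. Of the 59 pooled peaks in these windows 8 were past IDR (13.6%), against 11.0% of the whole pooled list. The windows thus held more peaks of both kinds per base, while the share of them past IDR was only slightly above that of the list. The density past IDR rests on 8 peaks, of which 3 lay in the window of S.

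**Figure D1:**
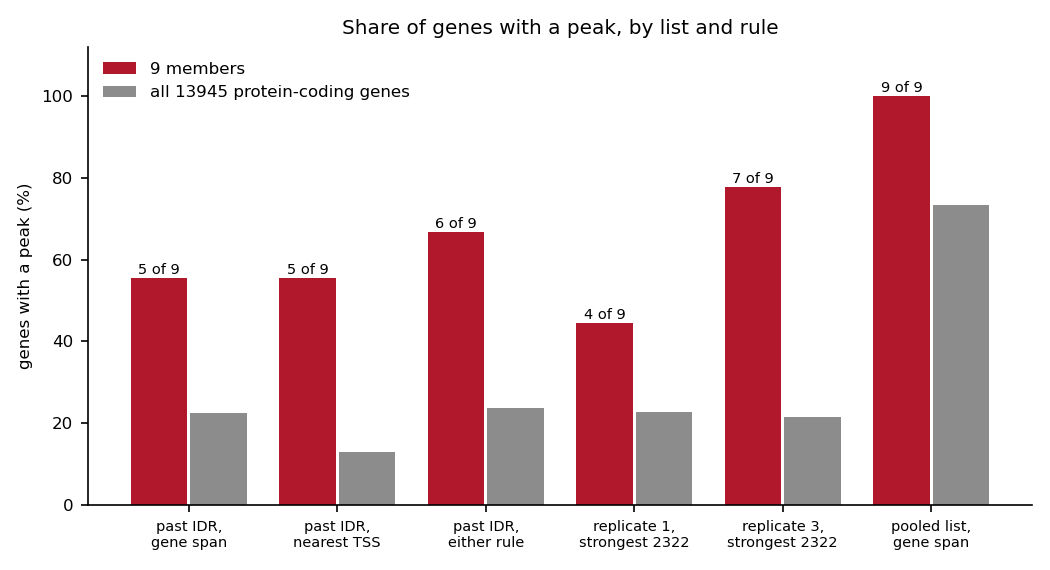
Percentage of genes with a peak, for the 9 genes of EGF receptor signalling (left bar of each pair, with the count above it) and all 13945 protein-coding genes (right bar), by list and rule. The 9 genes lie above all genes in each pair, from 4 of 9 against 22.7% with the strongest peaks of replicate 1 to 9 of 9 against 73.3% with the pooled list. The right bars are not matched for gene span.

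The ligand gene spi (FBgn0005672, dm6 chromosome 2L, 19567900 to 19577315, minus strand) had the highest peak of the 9 genes. Its summit at 19575792 had a pooled signal of 303.0 (rank 109), a signal of 175.2 in replicate 1 (rank 115) and of 120.1 in replicate 3 (rank 110). The 3 ranks were close to each other, and 1.52% of protein-coding genes had a pooled summit at least as high in their window. The summit lay 205 bp upstream of an internal spi start site, within a 7959 bp intron of 2 of the 5 spi transcripts. Replicate 3 listed a further summit at 19575952 with a signal of 33.5 (rank 1873), which the pooled list did not hold. The next pooled summit, at 19577447 just upstream of the first spi start site, had a signal of 54.0 (rank 4014) and was not past IDR. The spi gene also hosts the microRNA genes mir-2a-1, mir-2a-2 and mir-2b-2, and the annotation does not say which transcript a peak concerns.

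The ligand gene vn (FBgn0003984, 3L, 5813338 to 5845664, minus strand) had 13 pooled peaks by span, of which 1 was past IDR. That summit, at 5824233, had a pooled signal of 135.1 (rank 748), with 81.8 in replicate 1 (rank 768) and 68.6 in replicate 3 (rank 451). It lay in the first of 5 introns of vn, a 23921 bp intron, and 21431 bp downstream of the vn start site. The nearest protein-coding start site was 11140 bp away and belongs to mad2, a spindle checkpoint gene, so the nearest TSS rule gave this peak to mad2. A second vn summit, at 5819533, was the closest below the IDR list among all summits at the 9 genes, with a signal of 69.8 (rank 2582). It ranked 2308 in replicate 1 and 5486 in replicate 3.

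The ligand-trafficking gene S (FBgn0003310, 2L, 1049674 to 1077815, minus strand) had 3 peaks past IDR, the most of the 9 genes, all in its first intron of 14621 bp. The summit farthest from the start site, at 1072374 and 5437 bp downstream, had the highest signal, 281.6 in the pooled list (rank 130), 178.4 in replicate 1 (rank 108) and 104.6 in replicate 3 (rank 156). The summit at 1074742, 3069 bp downstream, had a pooled signal of 123.1 (rank 901) and ranked 1859 in replicate 1 and 484 in replicate 3. The summit at 1075943, 1868 bp downstream, had a pooled signal of 185.9 (rank 371) and ranked 734 in replicate 1 and 193 in replicate 3. The summits at 1074742 and 1075943 thus stood higher in the list of replicate 3 than in that of replicate 1, and the order of the 3 was the same in both. Neighbouring summits were 2368 and 1201 bp apart. At the S start site itself, a pooled summit 30 bp upstream, at 1077845, had a signal of 48.2 (rank 5010) and was not past IDR.

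The gene ru (FBgn0003295, 3L, 1370628 to 1387437, plus strand), which encodes an intramembrane protease that cuts Spitz, lies inside Ptp61F, a tyrosine phosphatase gene on the opposite strand. It had 7 pooled peaks by span. By either rule it had 2 peaks past IDR, both near the bottom of that list. The summit at 1368272, 2356 bp upstream of the ru start site and in an intron of Ptp61F, had a pooled signal of 81.1 (rank 2005) and ranked 2215 in replicate 1 and 2231 in replicate 3. The summit at 1376129, 5501 bp downstream in the first of 3 introns of ru, had a pooled signal of 78.8 (rank 2113) and ranked 2375 in replicate 1 and 2313 in replicate 3. Among the peaks of the 9 genes, these were the closest above the lowest signal past IDR.

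The receptor gene Egfr (FBgn0003731, 2R, 21522420 to 21559977, plus strand) has the longest span of the 9 and had 5 pooled peaks by span, none of them past IDR. Its strongest pooled summit, at 21527377 in its first intron and 4957 bp downstream of its start site, had a signal of 43.9 (rank 6104). In replicate 3 this summit had a signal of 31.3 (rank 2122), whereas replicate 1 listed no summit within 100 bp of it. The strongest summit of replicate 1 in the Egfr window lay elsewhere, at 21535524, with a signal of 26.1 (rank 7167). Its nearest protein-coding start site, 1271 bp away, belongs to CG30286, a gene inside Egfr on the opposite strand. The replicates therefore did not share a leading summit in the Egfr window. A pooled summit at least as high as that of Egfr was found in 41.1% of all genes and 58.4% of genes of like span.

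Among the antagonists, the gene aos (FBgn0004569, 3L, 16470386 to 16483650, minus strand), which encodes the secreted protein Argos that binds and sequesters Spitz, had 2 peaks past IDR. The summit at 16480553, in the first of 3 introns and 3097 bp downstream of the start site, had a pooled signal of 274.5 (rank 140), with 170.4 in replicate 1 (rank 127) and 104.2 in replicate 3 (rank 159). The summit at 16483794, 144 bp upstream of the start site, had a pooled signal of 123.0 (rank 903) and ranked 1160 in replicate 1 and 821 in replicate 3. The intronic peak was the higher in both replicates, and the summits were 3241 bp apart. The whole of aos lies within CG33158 on the opposite strand, and both summits are also in an intron of that gene.

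The gene sty (FBgn0014388, 3L, 3401153 to 3424935, minus strand), which encodes the intracellular inhibitor Sprouty, also a brake on FGF receptor signalling in tracheal branching, had 1 peak past IDR by nearest TSS and none by span. Its summit at 3432892 lay 7957 bp upstream of the sty start site, in intron 8 of 9 of eIF5B, a translation initiation factor gene. The pooled signal was 116.7 (rank 1014), with 70.0 in replicate 1 (rank 1078) and 44.5 in replicate 3 (rank 1094). Farther upstream, at 3438611 and 3438811, replicate 1 listed summits at ranks 1122 and 2152 that had no counterpart within 100 bp in replicate 3. In the pooled list they had signals of 68.1 (rank 2695) and 59.1 (rank 3450), below the IDR list. The strongest pooled summit within the sty window, at 3418959, had a signal of 57.0 (rank 3642), and ranked 6886 in replicate 1 and 2319 in replicate 3. The strongest summit of that window in replicate 1 lay at 3418778, with a signal of 35.0 (rank 3988).

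The gene kek1 (FBgn0015399, 2L, 12817000 to 12822787, minus strand), which encodes a transmembrane protein with leucine-rich repeats that binds the receptor, had the weakest signal of the 9. Its only pooled peak by span, at 12824186 and 1399 bp upstream of the start site, had a signal of 29.9 (rank 15728), and ranked 15404 in replicate 1. The strongest summit of its window in replicate 3, at 12824037, ranked 17247. By nearest TSS kek1 had 12 pooled peaks, the highest of which, at 12832739 and 9952 bp upstream, had a signal of 41.3 (rank 6974). A pooled summit at least as high as the one by span was found in 65.5% of all genes and 84.9% of genes of like span.

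**Figure D2:**
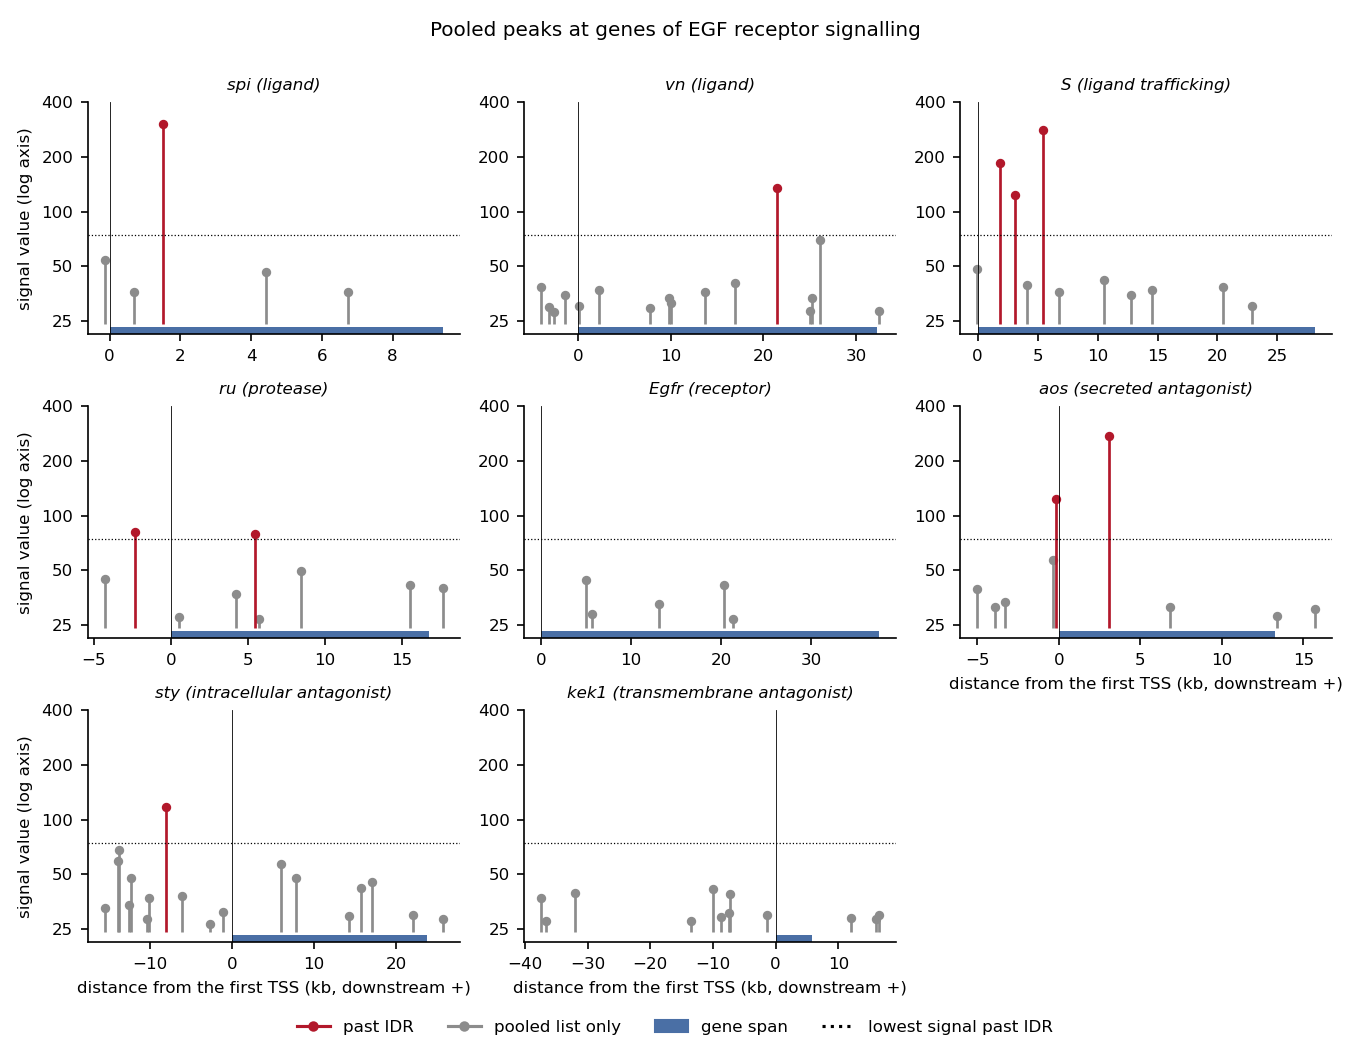
Pooled peaks at each of 8 genes, plotted by the distance of the summit from the first start site in the direction of transcription (kb) and by signal value (log axis). Red stems are peaks past IDR, grey stems are other pooled peaks, blue bars are gene spans and the dotted line is the lowest signal past IDR, 74.4. Peaks past IDR stand in spi, vn, S and aos, on both sides of the ru start site and upstream of sty, and none stand at Egfr or kek1.

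Ordered by the highest pooled signal in their windows, the genes were spi (303.0), S (281.6), aos (274.5), vn (135.1), ru (78.8), sty (57.0), Egfr (43.9) and kek1 (29.9). The sty peak past IDR (116.7) and the upstream ru peak (81.1) lie outside these windows and do not enter the order or the shares. At least as high a signal was found in 1.52% of all genes for spi, 1.85% for S, 1.99% for aos and 8.76% for vn. It was found in 21.1% of all genes for ru and 30.5% for sty. Among genes of like span the shares were higher, 2.36% for spi, 2.88% for S, 3.22% for aos and 13.3% for vn. For ru and sty they were 30.5% and 44.9%. Of the first 3 genes, spi and S changed places between lists, with S first in replicate 1 and spi first in replicate 3. The gene aos came after both in each list. These 3 were not told apart, since a peak has 1 signal value per list. The median over the 3130 protein-coding genes with a peak past IDR by span was 119.2, so spi, S, aos and vn stood above it and ru below it.

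**Figure D3:**
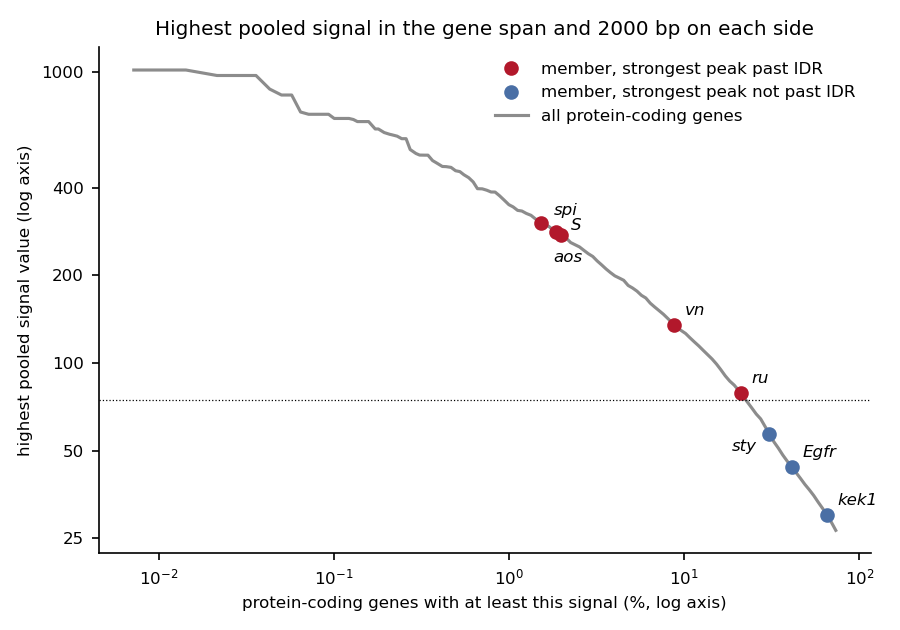
Highest pooled signal in each gene's window (log axis) against the percentage of protein-coding genes with at least that signal (log axis). The grey line is all protein-coding genes and the dotted line the lowest signal past IDR. Members of the EGF receptor group run along the line from spi at 1.52% to kek1 at 65.5%. The sty peak past IDR and the upstream ru peak lie outside the windows of these genes and are not plotted.

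Each of the 10 peaks past IDR at these genes had a summit within 100 bp in both replicate lists, as did 94.2% of all peaks past IDR. Among the 2322 strongest peaks of replicate 1, 4 of 9 genes (spi, S, vn and aos) held one by span, against 22.7% of all genes. Among the 2322 strongest of replicate 3, 7 of 9 did, with Egfr, ru and sty added, against 21.5%. Of the 85 pooled peaks that either rule gave to the 8 genes described, 40 had a summit within 100 bp in both replicates, the 10 past IDR and 30 others, against 41.9% of the whole pooled list. By nearest TSS, both replicates also held ru (summit 1368272) and sty (summit 3432892) among those peaks. The replicates thus shared spi, S, vn, aos, ru and sty by one rule or the other, and Egfr was among the strongest peaks of replicate 3 and not of replicate 1. The replicates shared 1 control alignment, whose part in what they have in common was not tested.

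**Figure D4:**
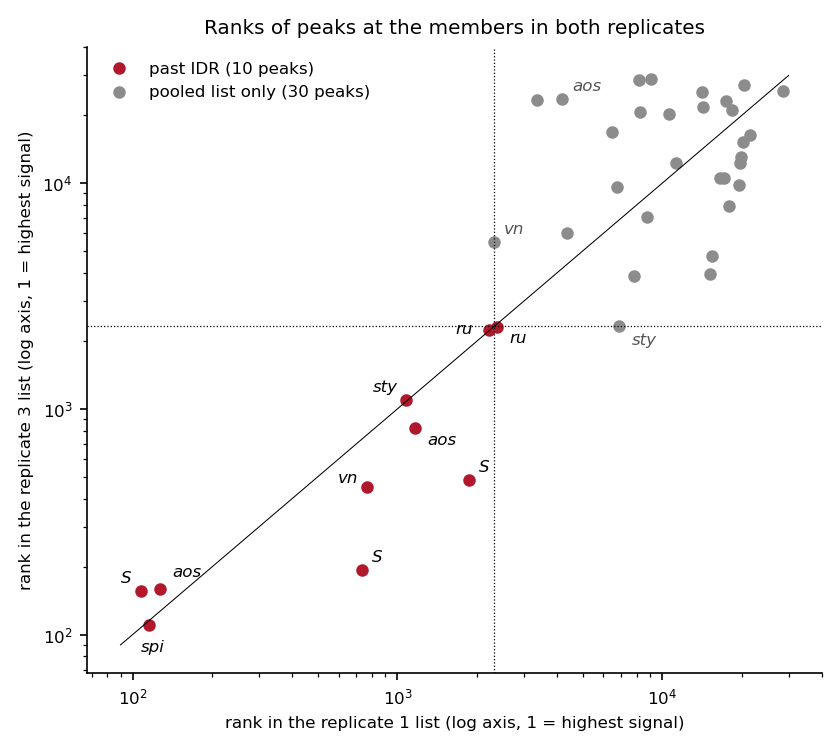
Rank in replicate 3 against rank in replicate 1 (log axes, 1 is the highest signal) for the 40 pooled peaks at the 8 genes described that have a summit within 100 bp in both lists. Red points are the 10 peaks past IDR, grey points the 30 others, dotted lines mark rank 2322 and the solid line equal ranks. The peaks of spi, S and aos at the lower left rank between 108 and 159 in both replicates, and the ru peaks lie at the crossing of the dotted lines.

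The peaks past IDR at the 9 genes were mostly away from start sites. Only 2 of 10, the peaks of spi and of the aos promoter, had a summit within 500 bp of any annotated TSS, against 55.1% of all peaks past IDR. The other 8 of 10 were over 1000 bp from any TSS, against 35.1% of all. All 10 summits lay in an intron and in no exon, against 45.8% of all peaks past IDR. The intron was of the gene itself in 7 cases and of Ptp61F, CG33158 or eIF5B in the others. The shares of all peaks take in peaks between genes and at genes of any length, so they are not matched for gene span or intron length. Peak intervals were 400 bp wide in 8 cases, and the intervals of the strongest peaks of S (175 bp) and aos (131 bp) were narrower, as were 7.19% of all peaks.

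The content of G and C bases in the 101 bp at the summits had a median of 37.6% over the 10 peaks, against 32.7% over all peaks past IDR. In windows of the same length centred 400 bp to each side, the median was 46.0% at these peaks and 44.1% at all peaks. The summit was the poorer in G and C in 7 of 10 peaks, against 80.0% of all peaks. It was lowest at the aos promoter peak (22.8%) and highest at the strongest S peak (47.5%). The summits richer in G and C than their flanks were that of S (47.5% against 40.6%), the upstream ru summit (41.6% against 32.7%) and that of vn (39.6% against 38.6%). Thus the strongest peaks of spi and aos (29.7% each) and that of S differed in base composition although their signals were close.

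**Figure D5:**
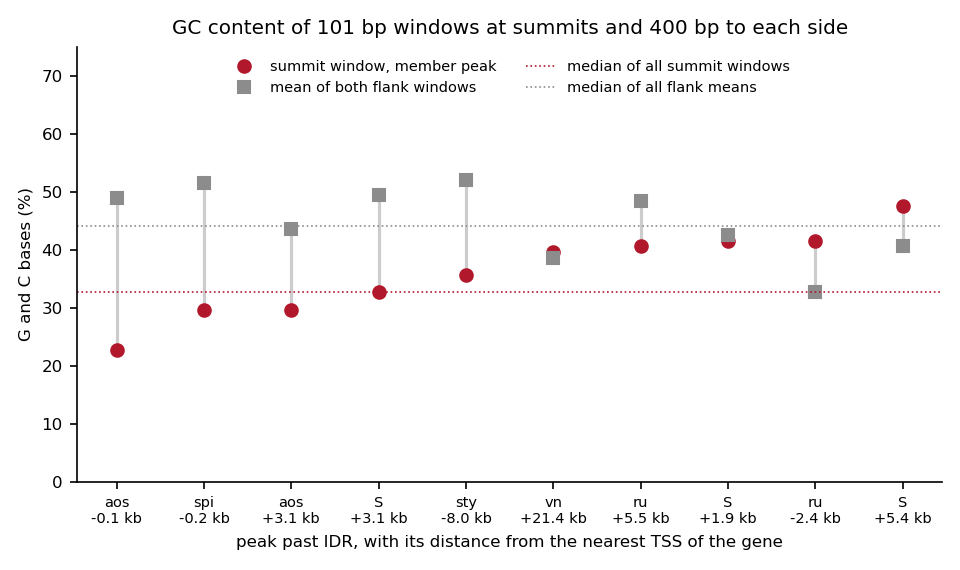
Percentage of G and C bases in the 101 bp at each of the 10 summits (red circles) and the mean of the windows 400 bp to each side (grey squares), ordered by the summit value. Dotted lines are the medians over all 2322 peaks past IDR, 32.7% at summits and 44.1% in flanks. The aos promoter, spi and intronic aos summits lie lowest and well below their flanks, and the strongest S summit, the upstream ru summit and the vn summit lie above theirs.

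The sequence known for Trh and Tango was found near 1 summit, that of spi. For its core ACGTG, 1 of 10 is close to the background shares. Within 50 bp of the summit, on either strand, ACGTG was found at 1 of 10 peaks, that of spi, against 6.68% of the 2322 peaks past IDR and 8.20% of 101 bp windows tiled over the chromosome arms. The spi match, at 19575744 to 19575748, is the core of the TACGTG match shown in capitals above, 44 bp from the summit. TACGTG was held by 1.89% of all peaks and 2.20% of genome windows. Both sequences were thus no more frequent in all peaks past IDR than in genome windows. A further ACGTG lies at 19575695 to 19575699, 93 bp from the spi summit. At the strongest aos peak, CACGTG lies at 16480470 to 16480475, 78 bp from the summit and outside the sequence shown, and since it is its own reverse complement it holds ACGTG on both strands. That match also lies outside the 131 bp interval of the aos peak. Within 100 bp of the summit, ACGTG was found at 2 of 10 peaks, against 13.1% of all peaks, and within 25 bp at 0 of 10, against 3.49%. Anywhere in the peak interval it was found at 1 of 10, against 26.5% of all peaks.

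Of the other sequences searched in the same windows, TGTTTAC, a forkhead-type sequence, was found at 1 of 10 peaks, on the minus strand 18 bp from the strongest S summit at 1072392 to 1072398, against 4.22% of all peaks and 1.89% of genome windows. GAGAG, which GAGA factor is known to bind, was found at 2 of 10, the vn and aos promoter peaks, against 9.35% of all peaks and 11.4% of genome windows. None of the 10 held CACGTG (0.947% of all peaks and 1.17% of genome windows) or TATCGATA (1.94% and 0.275%). None held CAGGTAG (0.431% of all peaks and 0.534% of genome windows) or the ETS-type core CCGGAA (2.15% and 3.07%). ACGTG overlaps TACGTG and CACGTG, so their counts are not separate.

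The windows of vn and sty share a run of 15 bases, noticed after the sequences had been read, which lies on the plus strand in both.
shared by vn and sty, plus strand: tttctcgctgtgcat
It lies at 5824220 to 5824234, over the vn summit, and at 3432922 to 3432936, 30 bp from the sty summit. Of the 45 pairs among the 10 windows, compared on both strands, this was the longest shared run, the next was 9 bases and the median 7. The run occurs 19 times on the main arms, and no other of the 2322 summit windows holds it.

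The other genes of the pathway were taken from a list of 29, also chosen with earlier results of these data known. All 29 matched the annotation (Gap1 as RasGAP1). By span, 19 of 29 (65.5%) held 37 peaks past IDR, against 22.4% of all protein-coding genes. By nearest TSS 12 of 29 held one, against 12.9%. With no bases added to the gene spans 11 of 29 held one, against 7.02% of all genes. These backgrounds are not matched for gene span. Some of the 29 genes are long, such as Raf (48405 bp) and pnt (55937 bp) with peaks past IDR, and rl (54466 bp) and kek5 (118734 bp) without. All 5 nuclear effectors held one, led by edl, an inhibitor of the ETS factor Yan (signal 249.2), and the corepressor gro (231.3). They were followed by aop, which encodes Yan (143.4), the repressor cic (119.1) and the ETS factor pnt (87.6).

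Of the adaptors and phosphatases 5 of 7 held a peak past IDR, led by the adaptor Shc (458.0, 122 bp from its own start site), the Ras GTPase-activating gene Gap1 (224.0) and the adaptor drk (146.1, nearest to the start site of mars at 867 bp). Ptp10D (105.1) and csw (74.9) followed, and Sos and Cbl held none. Of the cascade, 4 of 6 held one. Raf, the kinase activated by Ras, held 7 of them with a highest signal of 312.9, and Ras85D 1 (94.0). The peaks of cnk (278.2) and ksr (98.2) lay nearest to start sites of l(2)k01209 and CG31550, and the kinase genes Dsor1 and rl held none.

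Among the other ligands, the Spitz-like Krn held a peak (132.7) that lay 94 bp from the start site of Ndfip, and grk, the ligand of the female germline, held none. Of 5 other ligand-processing genes, the germline protease gene stet held one (76.5, 546 bp from its own start site), and so did cnir, a cornichon-related gene (131.4), 12 bp from the start site of CG17260. The other 3 held none. Of 4 other genes listed under feedback and antagonists, lbk (128.3) and Spred (117.8) held one, and in neither was the gene's own start site the nearest to the strongest summit. The grouping is that of the list and does not show that each gene inhibits the receptor. The genes kek5 and PTP-ER held none, although kek5 had a pooled summit at rank 2430 with a signal of 72.5.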

How the data were processed

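ChIP-seq of trh-GFP embryos was deposited as peak lists in narrowPeak layout. Per the deposited file lists, the authors called a relaxed list for each replicate and for the pooled replicates against 1 control alignment, and derived the list past IDR from them. The aligner is not given in the sources used here, nor are the peak caller and the IDR threshold. The signal value is a score deposited by the authors and ranks peaks within a list only. The deposited −log10 q value ran from 2.80 to 3.48 past IDR. The lists hold no read counts, so depth and the precision it gives are unknown. The dm3 lists were not used.

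The 4 dm6 lists were joined with Ensembl's BDGP6.54 annotation (release 115) and the genome of Release 6, after its arm names and lengths had been compared with the lists. Coordinates are 1-based. Summits were given to genes as described, and peaks of different lists were matched within 100 bp. Sequences were searched on both strands within 50 bp of summits. With 1 group, counts are set beside those of all protein-coding genes and no test was made. The 9 genes, the pathway list and the sequences were chosen with earlier results of these data known. 1 of the 9 genes enters the counts and is not reported here on its own, and the others are named with each peak past IDR and their strongest pooled and replicate summits. Gene assignment and sequence search were tested on simulated data. Other distances, lists and windows were tried as alternatives. Versions were pandas 2.3.3, numpy 2.4.6, scipy 1.17.1 and Python 3.11.15.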

Additional observations from a re-analysis of the deposited data

How the results depend on the processing

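Of 40 alternatives over 7 results, 35 moved the value by less than 1.5 times and 5 by more. With 10000 bp added to each side, the 9 genes held 14 peaks past IDR in place of 8. Wider windows take in more peaks at any gene, and no count over all genes at that distance is given here. With 0 bp added, 11 of the other pathway genes held one in place of 19. ACGTG was found at 0 of 10 summits within 25 bp, at 1 within 50 bp, at 2 within 100 bp and at 1 in the whole peak interval, where 26.5% of all peaks held it.

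Replacing the list past IDR by the 2322 strongest peaks of a single replicate gave 4 to 7 genes by span (5 with both replicates), 8 to 11 peaks by span (8), 5 to 6 genes by nearest TSS (5) and 12 to 13 peaks by either rule (10). It gave 18 to 19 other pathway genes (19), and 1 to 2 summits with ACGTG (1), of 13 without replicate 1 and 12 without replicate 3. The median rank of the strongest summits was 2113 in the pooled list and 2122 to 2375 in single replicates. The cause of these differences was not tested. The nearest TSS and peak counts from single replicates have no share over all genes beside them. No paired analysis was possible because there is 1 group. The lists carry no depth, so a gene without a peak past IDR was below the threshold of the list, and absence of binding is not shown.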
